A study of Mus musculus with 27 samples.

Results

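The 10 genes described here make, break down or sense prostaglandins. They are Ptgs1, Ptgs2, Ptges, Ptgis, Hpgds, Hpgd and the PGE2 receptor genes Ptger1, Ptger2, Ptger3 and Ptger4, taken by gene name from a table of 39971 genes. Prostaglandins are short-lived lipids that act on the cells around their source. Cyclooxygenases, encoded by Ptgs1 and Ptgs2, turn arachidonic acid into PGH2, and terminal synthases turn PGH2 into PGE2, PGI2 or PGD2. Hpgd inactivates PGE2, and in the colon PGE2 is known for epithelial repair, for inflammation and, where Hpgd is lost and Ptgs2 is induced, for tumor growth.

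RNA was sequenced from colon tissue of wild-type BALB/c mice in 5 groups and 27 libraries. Inflammation-associated neoplasia was induced in 4 of the groups with AOM/DSS, the carcinogen azoxymethane followed by the colon irritant dextran sulfate sodium. CAC_FPL (n = 6) received intraperitoneal FOLFOX and, by gavage, complex probiotics with loperamide. FOLFOX is the chemotherapy of folinic acid, fluorouracil and oxaliplatin, and loperamide is an opioid agonist that slows the gut. CAC_FP (n = 5) received FOLFOX and complex probiotics, CAC_F (n = 5) FOLFOX and saline, and CAC (n = 5) saline by both routes. NC (n = 6) were mice without AOM/DSS, with saline by both routes, and the labels give 1 batch for all libraries. Tissue was taken 1 week after chemotherapy began. It was a tumor-bearing segment of colon in the 4 AOM/DSS groups and colon in NC, so tissue source and AOM/DSS exposure cannot be told apart. The sources used here give neither age nor sex. The labels do not state that each library came from its own animal, so p-values measure the spread between these libraries.

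Total counts were 56687812 to 79709845 per library. Every marker of absorptive colonocytes and of goblet cells that was examined had counts in every library. Of the 10 genes, 9 passed the filter for testing, which asked for 5 or more of the 27 libraries with an FPKM of 1 or higher. Ptger2 reached that level in 4 libraries. FPKM, the authors' fragment counts divided by gene length and library depth, are used for levels. CPM, counts relative to the TMM-scaled library size, are used for markers and beside the tests. Colon tissue is a mixture, so fewer cells of a type and less RNA per cell cannot be told apart.

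Ptgs1, Ptgs2 and Ptges were higher in CAC_F than in CAC, and Ptgs2 and Ptges reached their highest levels in the same 2 CAC_F libraries, without which none of the 3 was called. Hpgds, which makes PGD2, was lower in CAC_F and in CAC_FP than in CAC. Hpgd had the highest FPKM of the 10 genes in 26 of 27 libraries, and no comparison called it. Promoter sequences of Ptgs2 and Ptges, the pair that stood high together, are shown because the data bear on their transcripts. They were read from RefSeq on GRCm38.p6, which is not the build of the deposited coordinates, and run from 100 bases before the annotated start to base 30 after it. Capitals mark matches to searched motifs.
Ptgs2, chr1:150099931-150100060, plus strand: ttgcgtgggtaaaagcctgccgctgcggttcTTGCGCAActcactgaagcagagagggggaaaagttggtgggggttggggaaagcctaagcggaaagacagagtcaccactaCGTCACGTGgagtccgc
Ptges, chr2:30903268-30903397, minus strand: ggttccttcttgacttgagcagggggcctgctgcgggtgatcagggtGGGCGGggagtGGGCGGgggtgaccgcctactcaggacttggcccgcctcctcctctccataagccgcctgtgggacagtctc

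In Ptgs2 the capitals mark a C/EBP motif (TTGCNNAA) at bases -69 to -62, and a half-site of the CRE motif (CGTCA) at 14 to 18 that overlaps an E-box (CACGTG) at 17 to 22. In Ptges they mark 2 GC boxes (GGGCGG) at -53 to -48 and -42 to -37. Over 300 bases around the start, searched on both strands, the C/EBP motif occurred in 10.8% of 32851 promoters. The share was 20.8% for the CRE half-site, 7.15% for the E-box and 35.7% for the GC box. The AP-1 motif (TGANTCA), present in 7.81% of promoters, was in none of the 8 members that the RefSeq table holds. Ptgs2 and Ptges shared the GC box, which lay at -170 to -165 in Ptgs2, outside the stretch shown. It was in 5 of the 8 members, with Hpgd, Ptger3 and Ptger4 among them. The C/EBP motif was also in Hpgds and Ptger2. A match describes letters and shows no binding.

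Ptgs2, the inducible cyclooxygenase, lies on chromosome 1 from 149975782 to 149983978 on the plus strand by the deposited coordinates, which come without a named build. In CAC_FPL it had 1.28, 0.93, 1.96, 7.23, 0.94 and 3.86 FPKM in replicates 1 to 6. In CAC_FP it had 1.38, 1.38, 1.81, 0.66 and 1.38 FPKM. In CAC_F it had 62.15 and 54.15 FPKM in replicates 1 and 2, and 1.70, 1.28 and 2.30 FPKM in replicates 3, 4 and 5. In CAC it had 1.37, 1.47, 0.53, 0.32 and 1.61 FPKM, and in NC 0.81, 1.14, 0.67, 0.95, 2.00 and 0.70 FPKM. CAC_F replicates 1 and 2 stood above all other libraries, and CAC_FPL replicates 4 and 6 came next. Of the other 3 CAC_F libraries, replicate 4 lay within the range of CAC and replicates 3 and 5 above it. By group median the order was CAC_F at 2.30, CAC_FPL at 1.62, CAC_FP at 1.38, CAC at 1.37 and NC at 0.88 FPKM, and each group overlapped its neighbour in this order. The mean of CAC_F was 24.3 ± 31.0 FPKM (SD, n = 5), an SD above the mean.

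**Figure D1:**
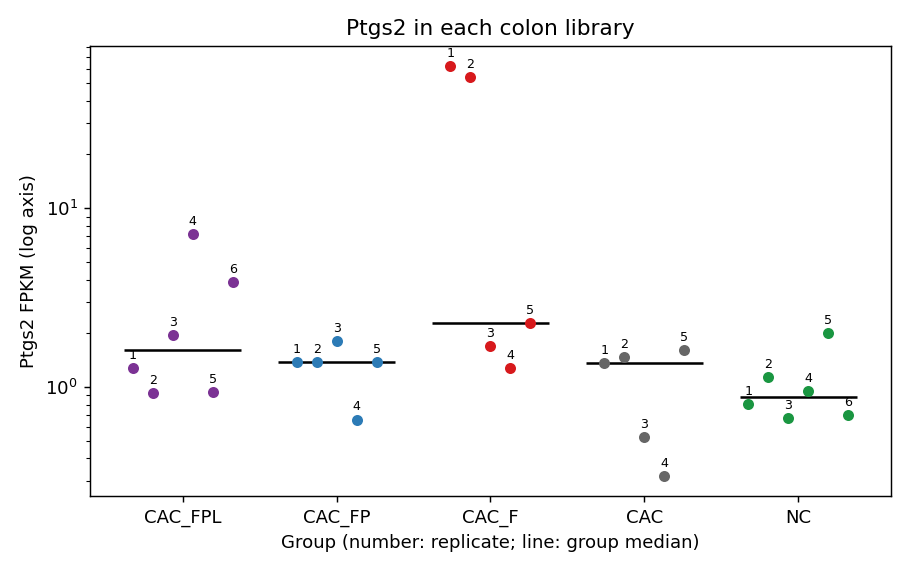
Ptgs2 FPKM on a log axis for each of 27 libraries, with groups from CAC_FPL on the left to NC on the right, replicate numbers above the points and a line at each group median. CAC_F replicates 1 and 2 lie at 62.15 and 54.15 FPKM, and the other 25 libraries at 7.23 FPKM or less.

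Against CAC, Ptgs2 rose in CAC_F, with a log2 fold change of 4.49 and an SE of 0.93 (adjusted p = 0.000767). Here and for all other genes the test was edgeR's quasi-likelihood test, with p adjusted after Benjamini and Hochberg. Without CAC_F replicates 1 and 2, left out because of their Ptgs2 level, the value was 0.66 ± 0.57 (adjusted p = 0.414, same test), so the call rests on those libraries. Voom with library weights, which gives libraries unlike their group less weight, put it at 2.06 (adjusted p = 0.0599). Ptgs2 stood at 0.25 ± 0.82 in CAC_FP against CAC and at 1.28 ± 0.80 in CAC_FPL against CAC, with adjusted p of 0.857 and 0.393 by the edgeR quasi-likelihood test. Against CAC_F it was lower in CAC_FPL at -3.22 ± 0.82 (adjusted p = 0.0169, edgeR quasi-likelihood test). This call was lost without CAC_F replicate 1 (-2.44, adjusted p = 0.0692) and without CAC_F replicate 2 (-2.75, adjusted p = 0.0602), and without both the value was 0.63 with an adjusted p of 0.595. In CAC_FP against CAC_F it was at -4.24 ± 0.92 and did not pass (adjusted p = 0.119, edgeR quasi-likelihood test). Before adjustment, p from that test was 0.000105 in CAC_FP against CAC_F and 0.000587 in CAC_FPL against CAC_F. The 2 calls thus differ through the adjustment over all tested genes, and not through a smaller change in CAC_FP. It was at 1.03 ± 0.79 in CAC_FPL against CAC_FP (adjusted p = 0.801) and at -0.05 ± 0.78 in CAC against NC (adjusted p = 0.993), both by the edgeR quasi-likelihood test. The comparisons with CAC share its 5 libraries, and those with CAC_F share that group's 5.

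Ptgs1, the constitutive cyclooxygenase, varied less. It had 10.12, 21.06, 9.69, 10.95 and 15.88 FPKM in CAC_F, against 8.37, 9.26, 7.55, 6.89 and 11.53 FPKM in CAC. The groups overlapped through CAC replicate 5, and CAC_F replicate 2 was the highest of all libraries. Its log2 fold change was 0.55 ± 0.21 (adjusted p = 0.0454, edgeR quasi-likelihood test), and the call was lost without CAC_F replicate 2 (0.36, adjusted p = 0.178) and in 10 other alternatives. CAC_FPL had 6.84 to 14.98 FPKM with a median of 8.27, CAC_FP 7.24 to 11.41 FPKM with a median of 10.36, and NC 6.70 to 10.24 FPKM with a median of 7.80. In FPKM, a scale per length, Ptgs2 was below Ptgs1 in 25 of 27 libraries. The ratio of Ptgs2 to Ptgs1 was 6.14 and 2.57 in CAC_F replicates 1 and 2. It was 0.103 to 0.483 in CAC_FPL, 0.0856 to 0.25 in CAC_FP, 0.0464 to 0.164 in CAC and 0.0879 to 0.232 in NC.

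Ptges encodes the inducible microsomal PGE2 synthase that is known to act with Ptgs2. It had 16.50, 22.23, 3.90, 4.51 and 7.00 FPKM in CAC_F, against 3.27, 5.17, 2.53, 3.01 and 3.23 FPKM in CAC. Replicates 1 and 2 of CAC_F were again the highest of the 27 libraries, and the groups overlapped through CAC replicate 2. It rose at 1.60 ± 0.40 on the log2 scale (adjusted p = 0.00305, edgeR quasi-likelihood test), and without CAC_F replicates 1 and 2 the value was 0.51 ± 0.32 (adjusted p = 0.253, same test). In CAC_FP it had 7.76, 4.70, 8.94, 2.52 and 6.43 FPKM, and in CAC_FPL 3.13 to 7.43 FPKM with a median of 5.82. Both group medians were above that of CAC, 3.23 FPKM, and neither comparison with CAC passed (adjusted p = 0.172 in CAC_FP and 0.387 in CAC_FPL, edgeR quasi-likelihood test). NC had 2.09 to 3.77 FPKM with a median of 2.75.

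Hpgds encodes the PGD2 synthase of blood-derived cells, known in mast cells and in the tuft cells of the gut. In CAC_FP it had 1.17, 1.10, 0.84, 1.58 and 1.31 FPKM, in CAC_F 1.92, 2.17, 1.42, 1.92 and 1.68 FPKM, and in CAC 2.18, 2.35, 2.90, 2.85 and 2.46 FPKM. Neither CAC_FP nor CAC_F overlapped CAC, though the highest CAC_F value lay just under the lowest of CAC. In CPM 10.1% of tested genes were apart in this way in CAC_FP and 20.8% in CAC_F. In CAC_FPL it had 1.26 to 2.42 FPKM with a median of 1.84, which overlapped CAC, and in NC 1.67 to 3.70 FPKM with a median of 2.24. Hpgds fell in CAC_FP by 1.17 on the log2 scale (log2 fold change -1.17 ± 0.21, adjusted p = 0.00145, edgeR quasi-likelihood test) and in CAC_F by 0.57 (-0.57 ± 0.20, adjusted p = 0.0296). The call in CAC_FP held in all 19 alternatives that tested it. In CAC_F the call was lost in 7 of 20 alternatives, with an adjusted p of up to 0.0856 without CAC_F replicate 3, and was kept without CAC_F replicates 1 and 2 (-0.69 ± 0.24, adjusted p = 0.0362). In CAC_FPL it was at -0.49 ± 0.19 against CAC and at 0.68 ± 0.20 against CAC_FP, and neither passed (adjusted p = 0.166 and 0.589, edgeR quasi-likelihood test). In CAC_FP against CAC_F it was at -0.61 ± 0.20 (adjusted p = 0.173, same test).

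Summed markers of the cells known to express Hpgds are set beside it here, and in CAC_F single genes made up much of these sums. Summed tuft cell markers lay below CAC without overlap in CAC_FPL, where Hpgds overlapped CAC, and in CAC_FP, and they overlapped CAC in CAC_F. Summed mast cell markers lay below CAC without overlap in CAC_F, and overlapped CAC in CAC_FPL and CAC_FP. The summed level of 9 tuft cell markers was 19.8 to 41.7 CPM in CAC_FPL, 26.5 to 36.3 in CAC_FP, 36.3 to 67.1 in CAC_F, 47.0 to 75.7 in CAC and 41.8 to 115 in NC. Trpm5, the cation channel of tuft cells, had 0.546 to 2.67 CPM in CAC_FPL, 0.446 to 2.50 in CAC_FP and 0.640 to 1.39 in CAC_F, against 3.96 to 12.8 CPM in CAC. Avil, another tuft cell marker, ran the other way in CAC_F, with 21.2 to 32.4 CPM against 5.04 to 11.4 CPM in CAC. It was a large part of the CAC_F sum of 36.3 to 67.1 CPM. Il25 was at 0 in every CAC_FPL library, and Il25, Pou2f3 and Gfi1b were at 0 in at least 1 library of CAC_FP and of CAC_F. The 9 mast cell markers summed to 59.3 to 146 CPM in CAC_FPL, 59.0 to 149 in CAC_FP and 57.0 to 133 in CAC_F, against 135 to 604 CPM in CAC and 182 to 1565 in NC. Kit, which interstitial cells of Cajal also express, had a median of 69.5 CPM in CAC_F, against 169 CPM in CAC. The mast cell sum had a median of 77.3 CPM in CAC_F and 174 CPM in CAC, so at the median it was mostly Kit. Cma1, Mcpt4, Fcer1a and Ms4a2 were at 0 in at least 1 CAC_F library. The part of these cells in the Hpgds values was not tested.

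Ptgis encodes prostacyclin synthase, known in endothelium and smooth muscle. It had 1.38 to 8.12 FPKM in CAC_FPL with a median of 3.39, 2.49 to 3.65 in CAC_FP with a median of 2.78, and 2.56, 5.36, 1.98, 2.02 and 2.76 FPKM in CAC_F. CAC had 2.14, 2.70, 3.44, 5.27 and 6.23 FPKM, and NC 2.37 to 7.98 FPKM with a median of 3.60. All groups overlapped, and CAC_F against CAC stood at -0.53 ± 0.39 (adjusted p = 0.291, edgeR quasi-likelihood test). The 10 smooth muscle markers summed to 1784 to 3073 CPM in CAC_F, against 3568 to 16261 CPM in CAC, with no marker at 0. With that list as a covariate the value was 0.59 ± 0.42 and was not called (adjusted p = 0.287, edgeR quasi-likelihood test). The covariate was the mean log2 CPM of the list, with a shared slope over all 27 libraries. The sums of the 2 groups do not overlap, so the adjusted value rests on the assumption that this slope holds in both. The part of smooth muscle in the Ptgis values was not tested.

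Hpgd, the dehydrogenase that inactivates PGE2, was abundant. It had 41.8 to 200.2 FPKM in CAC_FPL with a median of 108.8, and 117.49, 95.07, 37.40, 116.20 and 101.30 FPKM in CAC_FP. In CAC_F it had 80.16, 17.52, 69.90, 118.70 and 63.61 FPKM, against 143.50, 41.28, 142.00, 207.40 and 158.23 FPKM in CAC. NC had 102.55 to 165.13 FPKM with a median of 115.1. The CAC_F values lay below all CAC values except that of CAC replicate 2, and CAC_F replicate 2 had the lowest value of all libraries. Hpgd stood at -1.08 ± 0.44 in CAC_F against CAC and just missed the threshold (adjusted p = 0.0564, edgeR quasi-likelihood test). It passed in 5 of 21 alternatives, among them without CAC replicate 2 (-1.30, adjusted p = 0.0167), without CAC_F replicate 4 (-1.33, adjusted p = 0.0297) and with DESeq2 (adjusted p = 0.0356). In the other 16 it was not called, with values as near 0 as -0.50 and an adjusted p of up to 0.534. Without CAC_F replicates 1 and 2 it stood at -0.82 ± 0.47 (adjusted p = 0.203, edgeR quasi-likelihood test). Absorptive colonocytes are known to express Hpgd, and their 8 markers summed to 1099 CPM in CAC_F replicate 2, against 3932 to 5088 CPM in the other CAC_F libraries, and to 2411 CPM in CAC replicate 2, against 5149 to 8278 CPM in the other CAC libraries. CAC_FP replicate 3, the lowest of its group for Hpgd, went the other way, with 7294 CPM in a group range of 5272 to 10272 CPM. CAC_FPL replicates 3 and 6, the lowest of that group for Hpgd, had 3754 and 4385 CPM in a range up to 9070 CPM. NC had 5002 to 14183 CPM. No marker of that list was at 0, and its part in the Hpgd values was not tested.

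Set against each other in FPKM, Hpgd exceeded Ptges in every library but 1. The ratio of Hpgd to Ptges was 5.63 to 63.9 in CAC_FPL with a median of 19.6, 4.18 to 46.1 in CAC_FP with a median of 15.8, and 0.788 to 26.3 in CAC_F with a median of 9.09. In CAC it was 7.98 to 68.9 with a median of 49.0, and in NC 27.2 to 69.5 with a median of 43.5. The library below 1 was CAC_F replicate 2, and CAC replicate 2 lay far under the other CAC libraries, which had 43.9 to 68.9. The median of each FOLFOX group was below that of CAC, with overlap in each case.

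**Figure D2:**
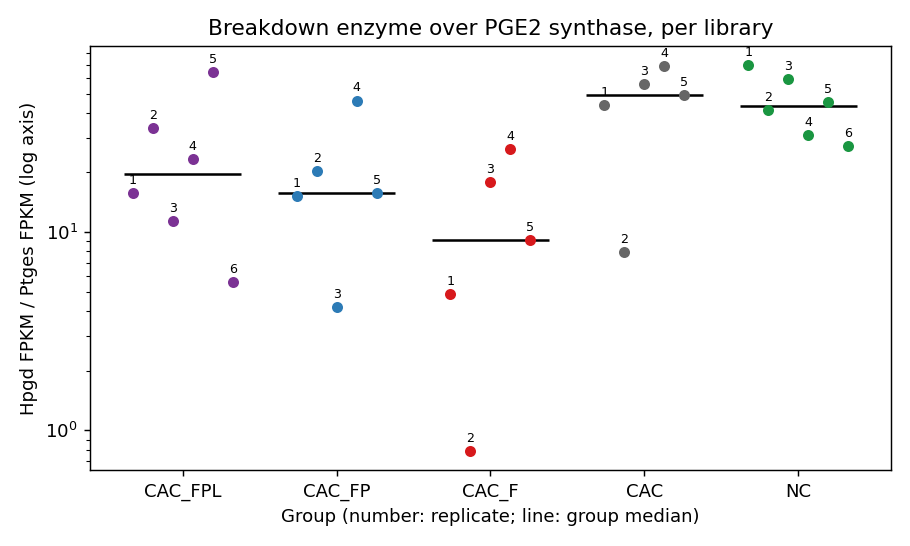
Ratio of Hpgd FPKM to Ptges FPKM on a log axis for each of 27 libraries, with replicate numbers above the points and a line at each group median. The medians run from 19.6 in CAC_FPL, 15.8 in CAC_FP and 9.09 in CAC_F to 49.0 in CAC and 43.5 in NC, and CAC_F replicate 2 lies at 0.788.

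The PGE2 receptors were expressed at a few FPKM or less, and no comparison called any of them. Ptger4, the EP4 receptor that raises cAMP and is known in epithelium and immune cells, had 2.95, 3.25, 3.32, 4.00 and 3.93 FPKM in CAC_F, against 4.67, 3.99, 3.71, 2.88 and 5.80 FPKM in CAC. These groups overlapped, and the value of -0.36 ± 0.16 did not pass (adjusted p = 0.0734, edgeR quasi-likelihood test), though it did without CAC replicate 4 (adjusted p = 0.025). Ptger4 had 3.22 to 4.88 FPKM in CAC_FPL, 3.36 to 5.08 in CAC_FP and 3.00 to 4.50 in NC. Ptger1, the EP1 receptor that signals through calcium, had 1.58 to 3.43 FPKM in CAC_FPL, 1.87 to 3.19 in CAC_FP, 1.9 to 2.74 in CAC_F, 1.73 to 3.48 in CAC and 1.82 to 2.39 in NC. CAC_F against CAC stood at -0.25 ± 0.19 for it (adjusted p = 0.322, edgeR quasi-likelihood test). With the smooth muscle covariate, from a list whose sums do not overlap between these groups, it was at 0.30 ± 0.18 (adjusted p = 0.225, same test). Of Ptger4, 11676 bases overlap Ttc33 on the opposite strand. The libraries keep strand, but whether the counting used it is not stated, so reads of genes that overlap on opposite strands may not be told apart.

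Ptger3, the EP3 receptor that lowers cAMP, had 5.47, 1.46, 1.17, 1.83, 1.11 and 2.46 FPKM in CAC_FPL, 1.16 to 1.63 in CAC_FP, 0.97, 1.06, 0.79, 1.08 and 1.58 in CAC_F, 0.82, 0.95, 1.09, 1.55 and 1.21 in CAC, and 0.73 to 2.83 in NC. CAC_FPL replicate 1 stood apart. In CAC_F against CAC it was at -0.13 ± 0.37 (adjusted p = 0.795, edgeR quasi-likelihood test). In CAC_FPL it stood at 0.93 ± 0.36 against CAC and at 1.06 ± 0.36 against CAC_F, and neither passed (adjusted p = 0.162 and 0.0525, same test). Adipocytes are known to express Ptger3, and 6 adipocyte markers summed to 1466 and 1137 CPM in CAC_FPL replicates 1 and 6, the highest for Ptger3 in that group, against 12.7 to 216 CPM in its other libraries. The sum was 17.1 to 708 CPM in CAC_FP, 37.9 to 377 in CAC_F, 18.2 to 213 in CAC and 20.6 to 530 in NC, with Retn, Plin1 and Lep at 0 in at least 1 CAC and 1 CAC_F library. Their part in the Ptger3 values was not tested. Ptger2, the EP2 receptor, had 0.48 to 1.22 FPKM in CAC_FPL, 0.49 to 0.81 in CAC_FP, 0.60 to 1.96 in CAC_F, 0.37 to 1.15 in CAC and 0.53 to 0.94 in NC. It was not tested in the filtered fit, and without a filter its adjusted p in CAC_F against CAC was 0.419 (edgeR quasi-likelihood test).

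**Figure D3:**
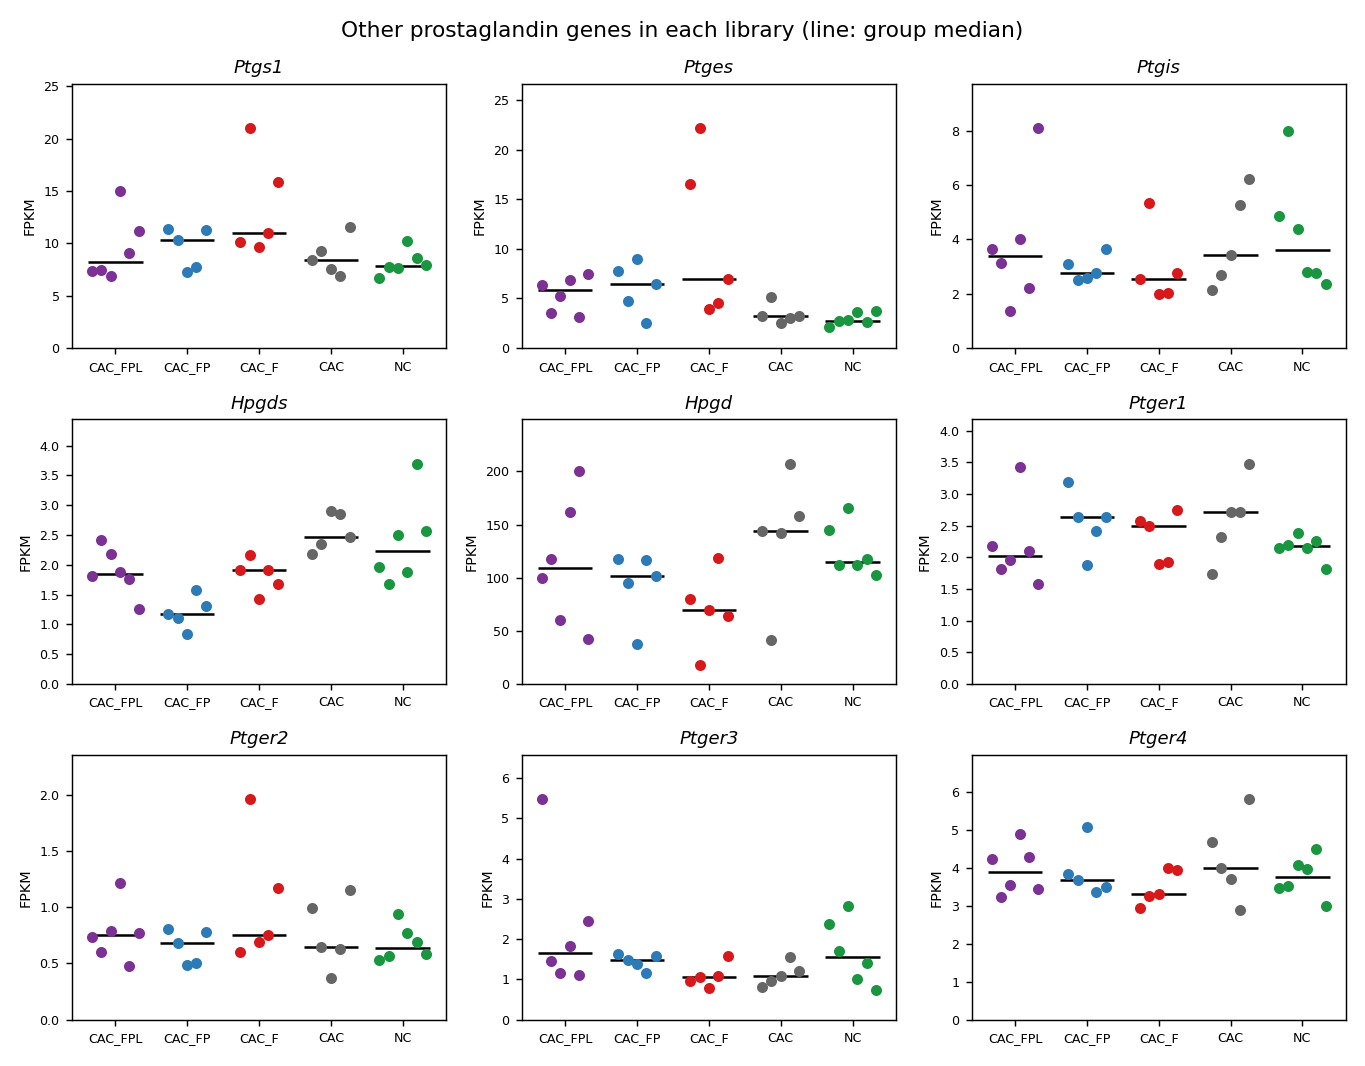
FPKM of the other 9 prostaglandin genes on linear axes from 0, 1 panel per gene and 1 point per library, with groups from CAC_FPL on the left to NC on the right and a line at each group median. Ptges stands out in 2 CAC_F libraries at 16.50 and 22.23 FPKM, Hpgds is below CAC in all CAC_FP and CAC_F libraries, and the receptors overlap between all groups.

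Counted over comparisons, FOLFOX alone called most. In CAC_F against CAC 4 of the 9 tested members were called, 3 higher and 1 lower, where 39.1% of all 15080 tested genes were called, 19% higher and 20.2% lower. The share of members was thus near that of all genes. The median log2 fold change was -0.25 over the 9 members and -0.03 over all genes. Without CAC_F replicates 1 and 2 Hpgds was the 1 member called, with 3999 genes called in all. In CAC_FP against CAC 1 member was called, Hpgds, where 18.6% of genes were called, 9.68% higher and 8.9% lower. In CAC_FPL against CAC none of the 9 passed the edgeR quasi-likelihood test, with 1.41% of genes called, 0.882% higher and 0.524% lower. Hpgds and Ptger3 were among 2837 genes with an unadjusted p under 0.05 there, and DESeq2 called no member.

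Adding probiotics to FOLFOX called none of the 9 members in CAC_FP against CAC_F, where the edgeR quasi-likelihood test called 0% of genes. At an unadjusted p under 0.05 there were 4 members, Ptgs2, Hpgds, Ptgs1 and Ptges, and 2401 genes, and DESeq2 called 247 genes with Ptgs2 among them. No member was apart between these groups, as 2.31% of genes were. Adding loperamide called none in CAC_FPL against CAC_FP, again at 0% of genes. Hpgds alone had an unadjusted p under 0.05 among 995 such genes, and DESeq2 called 21 genes and no member. In CAC_FPL against CAC_F 1 member was called, Ptgs2, lower, where 12.2% of genes were called, 7.14% higher and 5.05% lower. No member was apart between these groups in CPM, as 3.16% of genes were. Ptges was at -0.99 ± 0.37 and Ptgs1 at -0.49 ± 0.20 there and neither passed (adjusted p = 0.0743 and 0.102, edgeR quasi-likelihood test). Without CAC_F replicates 1 and 2 the Ptges value was 0.11, and no gene of the table was called. AOM/DSS neoplasia without treatment called none in CAC against NC, where 0.00663% of genes were called. No member reached an unadjusted p under 0.05 there by the edgeR quasi-likelihood test, 1164 genes did, and DESeq2 called 41 genes and no member.

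**Figure D4:**
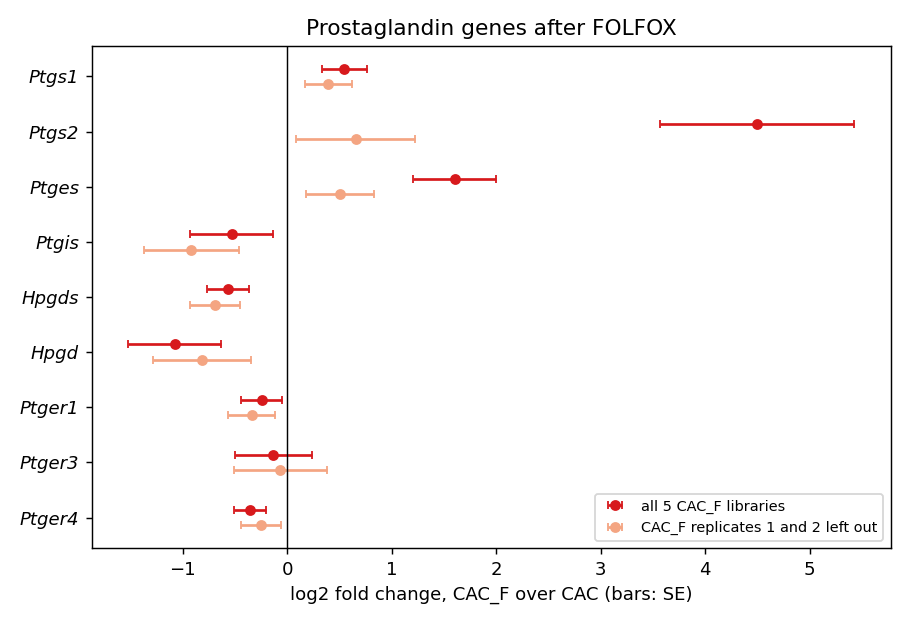
Log2 fold change of CAC_F over CAC for the 9 tested genes, with bars of 1 SE, for all 5 CAC_F libraries in dark red and with CAC_F replicates 1 and 2 left out in light orange. Ptgs2 lies at 4.49 with all libraries and at 0.66 without those 2, Ptges at 1.60 and 0.51, and Hpgds at -0.57 and -0.69.

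The wider pathway was read from 6 lists, chosen with earlier results of these data known, so their counts are descriptions. They hold 76 genes, of which 75 were in the table and 62 were tested. In CAC_F against CAC 22 of them rose and 11 fell, where 19% of all tested genes were called higher and 20.2% lower. The median log2 fold change was 0.39 over the lists and -0.03 over all genes. Of the 22 that rose, 13 were regulators of Ptgs2, a list with a median of 1.55 that holds cytokines and transcription factors. In the other lists the medians were -0.15 to 0.50, so the pooled count does not describe the prostanoid genes. Of 12 phospholipases that free arachidonic acid, 3 rose and 1 fell. Pla2g2a, a secreted phospholipase, had 1267 to 4427 FPKM in CAC_F, against 60.7 to 629 FPKM in CAC. Its log2 fold change was 3.5 ± 0.54 (adjusted p = 8.06e-05, edgeR quasi-likelihood test). Pla2g4c, a cytosolic phospholipase, had 0.15 to 1.22 FPKM in CAC_F, against 6.90 to 220.3 FPKM in CAC, and was called lower at -6.93 ± 1.32 on the log2 scale. Pla2g4e was at 3.20 ± 1.03 and Pla2g12a at 0.67 ± 0.26, and without CAC_F replicates 1 and 2 they stood at 2.75 and 0.57 and were not called (adjusted p = 0.069 and 0.161, edgeR quasi-likelihood test). The Pla2g12a call was also lost in 10 other alternatives. CAC_F and CAC did not overlap for Pla2g2a or for Pla2g4c, and both stayed called in all 21 alternatives.

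Of 7 other prostanoid synthases and reductases none rose and 2 fell in CAC_F against CAC. Beside this and the next 2 lists, 19% of all tested genes were called higher and 20.2% lower. Gstm2, a glutathione transferase with near relatives in the genome, was at -0.59 ± 0.13, and Akr1c18, a ketosteroid reductase, at -2.57 ± 0.86. The Akr1c18 value was -2.31 without CAC_F replicate 1 and -2.30 without replicate 2, neither of them called (adjusted p = 0.0539 and 0.0535, edgeR quasi-likelihood test). Of 8 genes for transport and further breakdown 2 rose and 2 fell. Abcc4, a pump that exports prostaglandins, had 5.04 to 9.32 FPKM in CAC_F, against 1.95 to 4.43 FPKM in CAC, at 1.35 ± 0.21 (adjusted p = 7.44e-05, edgeR quasi-likelihood test). Ptgr1 was at 0.39 ± 0.13, Ptgr3 at -0.47 ± 0.12 and Cyp4f18 at -1.64 ± 0.53, and without CAC_F replicates 1 and 2 Cyp4f18 stood at -1.46 and was not called (adjusted p = 0.0913). Ptgr1 and Ptgr3 encode prostaglandin reductases. Of 5 other receptors and their partners 2 rose and 2 fell. Tbxa2r, the thromboxane receptor, was at -1.28 ± 0.29, Pparg at -0.77 ± 0.28, Ptgfrn at 0.50 ± 0.12 and Ptgir, the prostacyclin receptor, at 1.42 ± 0.45. Without CAC_F replicates 1 and 2 Ptgir stood at 0.51 (adjusted p = 0.408) and Pparg at -0.64 (adjusted p = 0.155), by the edgeR quasi-likelihood test.

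The neighbouring list of lipoxygenase and leukotriene genes had 2 of 9 higher and 3 lower in CAC_F against CAC. Of all tested genes 19% were called higher and 20.2% lower there. The 2 higher ones were Fpr2 and Cmklr1, neither of them a lipoxygenase. Alox5ap, which presents arachidonic acid to the lipoxygenase Alox5, was at -0.98 ± 0.33, Alox5 at -0.96 ± 0.36 and the leukotriene receptor Cysltr1 at -1.05 ± 0.26. Alox5 is also one of the tuft cell markers. The formyl peptide receptor Fpr2 was at 2.91 ± 0.77 and Cmklr1 at 1.01 ± 0.35, and without CAC_F replicates 1 and 2 Cmklr1 stood at 0.69 and was not called (adjusted p = 0.169, edgeR quasi-likelihood test). Of 21 genes known to regulate Ptgs2 transcription or the decay of its mRNA, 13 rose and 1 fell, with a median of 1.55. Of all tested genes 19% were called higher and 20.2% lower. Since this list was chosen with earlier results of these data known, the difference from that share is a description and no test. The EGFR ligand Areg had 31.9 to 105 FPKM in CAC_F, against 2.09 to 8.19 FPKM in CAC, at 3.93 ± 0.51. Ereg, another EGFR ligand, was at 3.23 ± 0.56, the AP-1 subunit Fosl1 at 5.78 ± 0.97 and the cytokine Il1a at 4.97 ± 0.96. Areg, Ereg, Fosl1 and Il1a stayed called without CAC_F replicates 1 and 2, at 3.54, 2.35, 5.36 and 2.96. Of 10 squamous epithelium markers 9 were in the table, and they summed to 12.1 to 27.0 CPM in CAC_FPL, 9.22 to 30.5 in CAC_FP and 18.1 to 56.4 in CAC_F, against 1.94 to 21.2 CPM in CAC and 2.92 to 10.2 in NC. In every CAC_F library 1 or 2 of the 9 were at 0, with Krt5, a defining basal keratin, at 0 to 0.231 CPM and Krt4 at 3.42 to 23.3 CPM. Their part in the levels of the regulators was not tested.

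Over the 62 pathway genes, 17 rose and 5 fell in CAC_FP against CAC, where 9.68% of all tested genes were called higher and 8.9% lower. Of these 17, 8 were regulators of Ptgs2. In CAC_FPL against CAC 4 rose and 1 fell, where 0.882% were called higher and 0.524% lower. In CAC_FPL against CAC_F 5 were higher and 8 lower, where 7.14% were called higher and 5.05% lower. The higher ones were Prxl2b, Gstm2, Ptgr3, Tbxa2r and Creb1, at 0.40 to 1.04 on the log2 scale. The lower ones were Abcc4, Ptgfrn, Rela, Nfkbia, Fosl1, Il1b, Il1a and Areg, at -3.22 to -0.39. Without CAC_F replicates 1 and 2 no gene of the table was called in that comparison, while the 13 values kept their direction. Gstm2 then stood at 0.53 against 0.55 with all libraries, Ptgr3 at 0.38 against 0.46, Abcc4 at -0.66 against -0.80 and Areg at -1.38 against -1.77. Il1b at -0.50 against -2.56, Nfkbia at -0.43 against -1.45 and Il1a at -1.19 against -3.22 moved further. None of the 62 was called in CAC_FP against CAC_F, in CAC_FPL against CAC_FP or in CAC against NC by the edgeR quasi-likelihood test.

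The 2 CAC_F libraries high in Ptgs2 differed from each other and from the rest in cell type markers. The 10 macrophage and monocyte markers summed to 897 and 1251 CPM in CAC_F replicates 1 and 2, and to 553 to 672 CPM in the other 3. The sums were 368 to 826 CPM in CAC_FPL, 375 to 817 in CAC_FP, 367 to 499 in CAC and 278 to 493 in NC, with no marker at 0. The 8 neutrophil markers summed to 1072 and 462 CPM in CAC_F replicates 1 and 2, against 286 to 855 CPM in the other 3 CAC_F libraries. They summed to 34.4 to 600.1 CPM in CAC_FPL, 102 to 668 in CAC_FP, 14.1 to 137 in CAC and 14.3 to 34.4 in NC. Ly6g alone held 268 to 1050 CPM of that sum in CAC_F, whereas S100a8, a defining granulocyte gene, had 0.564 to 8.05 CPM and Mpo was at 0 in 4 of 5 libraries. The 8 endothelial markers summed to 457 CPM in CAC_F replicate 2, against 138 to 229 CPM in the other CAC_F libraries. Replicate 1 had the highest summed absorptive colonocyte and goblet cell markers in CAC_F, and replicate 2 the lowest of all 27 libraries. Ptgs2 was high in both, and the part of any cell type in its level was not tested.

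Over the 16 FOLFOX-treated libraries the 5 genes most like Ptgs2 were Chic2, Plau, Pde4b, Cdr2l and Csrnp1, out of 13440 tested genes other than predicted ones. The Pearson r of log2 CPM was 0.94, 0.94, 0.93, 0.92 and 0.92. Plau encodes the urokinase plasminogen activator and Pde4b a cAMP phosphodiesterase. Pde4b had 36.44 and 23.29 FPKM in CAC_F replicates 1 and 2, and 1.9 to 4.49 FPKM in the other 3. Plau had 42.63 and 65.36 FPKM in CAC_F replicates 1 and 2, and 9.26 to 16.83 FPKM in the other 3. With CAC_F replicates 1 and 2 left out, r over 14 libraries was 0.85 for Plau and 0.57 to 0.66 for the other 4, so the likeness rests in part on those libraries. After each of the 5 groups was centred, r over all 27 libraries was 0.90 for Plau, 0.88 for Pde4b and 0.79 to 0.84 for the others. Centring leaves CAC_F replicates 1 and 2 far from their group mean, and the 5 genes were picked over 16 of these libraries. The centred r is thus no separate check. Ptges had an r with Ptgs2 of 0.87 over 16 libraries, 0.62 over 14 and 0.80 over 27 centred ones. The libraries share their treatment groups, and these are descriptions with no test.

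**Figure D5:**
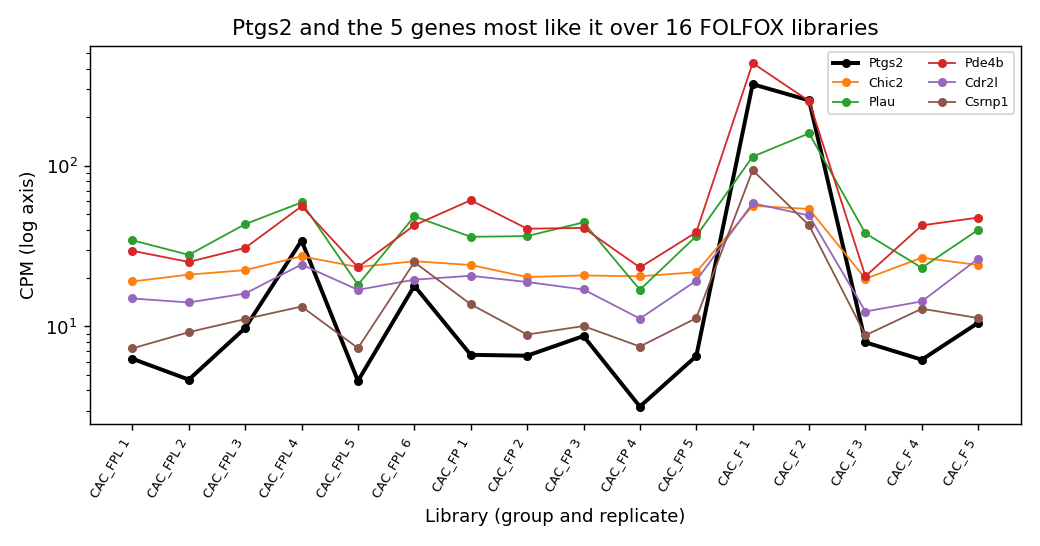
CPM on a log axis of Ptgs2 and the 5 genes most like it across the 16 FOLFOX-treated libraries, from CAC_FPL on the left through CAC_FP to CAC_F. All 6 lines peak in CAC_F replicates 1 and 2, where Ptgs2 reaches 321 and 255 CPM.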

How the data were processed

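The authors deposited raw counts per gene and FPKM, with 2 decimals, for 27 libraries. Libraries were stranded, by the dUTP method, from Trizol-extracted RNA, per the labels' protocols. Of tools, HISAT2, cutadapt 1.9 and FastQC appear in the submitters' processing notes. Not given in the sources used here are the genome build, the annotation and the tool that counted reads. Of the deposited genes, 37029 have an ID in GENCODE M21 (GRCm38) and 695 of these share start and end.

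Counts of the 15080 genes with 5 or more libraries at 1 FPKM or higher were scaled by TMM and fitted with edgeR 4.0.16 (quasi-likelihood test, R 4.3.3) in 1 model with a coefficient per group. p-values were adjusted by Benjamini-Hochberg over the tested genes, two-sided, and called below 0.05 in 7 comparisons. SE was taken as the size of the log2 fold change divided by the root of F and is approximate. Alternatives used DESeq2 1.42.0, limma 3.58.1 (voom weights; log2(FPKM + 1) and log2(FPKM + 0.1)), other filters, size factors and covariates, and libraries left out. Scripts were tested on simulated data. Members and lists were chosen with earlier results of these data known. Pathway genes named are up to 4 called per list by smallest adjusted p in CAC_F against CAC, and all called in CAC_FPL against CAC_F. Genes most like Ptgs2 are the 5 with the highest Pearson r of log2 CPM (prior count 0.5). Alox5 was added after its values were seen, to complete a count. No 2 libraries of a group held identical counts or agreed within sampling noise. Leaving out CAC_F replicates 1 and 2, and CAC_FPL replicates 4 and 6, was chosen after seeing the data.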

Additional observations from a re-analysis of the deposited data

Results flagged for a closer look

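Within single groups, 5 of 50 sets of CPM values held a library far from the others by Dixon's criterion, which chance meets in about 1 of 20 sets. Ptger3 was at 33.4 CPM in CAC_FPL replicate 1, against 6.77 to 14.2 CPM in the other 5. Ptgis was at 14.1 CPM in CAC_F replicate 2, against 5.20 to 7.43 CPM in the other 4. Ptgs1 was at 51.3 CPM in CAC replicate 5, against 30.5 to 36.3 CPM in the other 4, and at 48.7 CPM in NC replicate 4, against 31.2 to 37.3 CPM in the other 5. Ptgs2 was at 10.2 CPM in NC replicate 5, against 3.47 to 5.91 CPM in the other 5. The 2 high CAC_F libraries for Ptgs2 did not meet the criterion, since they lie close to each other.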

How the results depend on the processing

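Over 20 to 23 alternatives per comparison, 525 recomputed log2 fold changes of members gave 464 with the direction and call of the main value, 29 that lost the call, 21 that gained it and 11 that reversed. Of 744 for pathway genes, 609 were the same and 135 lost the call. The cause was not tested for any change except where fewer genes or libraries were fitted.

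Reversals in CAC_F against CAC were 0.59 for Ptgis, 0.30 for Ptger1 and 0.52 for Ptger3 with the smooth muscle covariate. None of these was called (adjusted p = 0.287, 0.225 and 0.386, edgeR quasi-likelihood test), and the smooth muscle sums do not overlap between the 2 groups. Ptger3 ranged from -0.26 to 0.019 with single libraries left out, reversing without CAC replicate 4. Without CAC_F replicates 1 and 2, Ptges reversed to 0.26 in CAC_FP against CAC_F and to 0.11 in CAC_FPL against CAC_F, and Ptgs2 to 0.63 in CAC_FPL against CAC_F. Ptgs2 reversed to -0.015 in CAC_FPL against CAC_FP without CAC_FPL replicates 4 and 6, and ranged from -0.28 to 0.22 in CAC against NC with single libraries left out, reversing without NC replicate 5, CAC replicate 3 or CAC replicate 4.

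Members called in CAC_F against CAC (4) were 2 with no filter, with a mean FPKM of at least 5 and with voom weights, 1 without CAC_F replicates 1 and 2, and 2 to 5 with single libraries left out. In CAC_FPL against CAC_F (1) they were 3 with DESeq2 and without CAC_FPL replicates 4 and 6, 2 with the smooth muscle covariate, 0 in both limma fits on FPKM, with voom weights, the replicate block, only the groups compared, and without CAC_F replicates 1 and 2, and 0 to 3 with single libraries left out. In CAC_FP against CAC (1) the count was 0 at a mean FPKM of at least 5, where Hpgds was not tested. In CAC_FP against CAC_F (0) it was 1 with DESeq2 and 0 to 1 with single libraries left out, and in CAC_FPL against CAC_FP (0) 1 with voom weights.

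Genes called in CAC against NC (1) were 41 with DESeq2, 3 and 2 with limma on log2(FPKM + 1) and log2(FPKM + 0.1), 10 with voom weights, 0 with the replicate block and with only the groups compared, and 0 to 4 with single libraries left out. In CAC_F against CAC (5902) they were 3708 at a mean FPKM of at least 5. In CAC_FP against CAC (2802) they were 5187 with voom weights, 1391 with the smooth muscle covariate and 1515 to 3448 with single libraries left out. In CAC_FPL against CAC (212) they were 82 with no filter, 860 with DESeq2, 934 with voom weights, 95 with the replicate block, 9 with only the groups compared, 56 without CAC_FPL replicates 4 and 6, and 23 to 797 with single libraries left out. In CAC_FP against CAC_F (0) they were 247 with DESeq2, 38 with voom weights and 0 to 616 with single libraries left out. In CAC_FPL against CAC_FP (0) they were 21 with DESeq2, 672 with voom weights, 61 without CAC_FPL replicates 4 and 6, and 0 to 4 with single libraries left out. In CAC_FPL against CAC_F (1838) they were 743 with no filter, 3457 with voom weights, 0 with only the groups compared and without CAC_F replicates 1 and 2, 3425 without CAC_FPL replicates 4 and 6, and 426 to 2540 with single libraries left out.

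The replicate numbers did not meet the criterion set for pairing, a correlation above 0.1 in every pair. Missing it does not exclude that libraries were paired. Same-numbered libraries of CAC_FP and CAC_F had a correlation of their deviations from the group means above 0.1 in 4 of 5 pairs (r from -0.13 to 0.35). In CAC_F against CAC r was positive in all 5 pairs (0.01 to 0.23) and above 0.1 in 2, and no comparison had all 5 above 0.1. With the number as a replicate block, 5723 genes and 5 members were called in CAC_F against CAC, Hpgd being the fifth (adjusted p = 0.036, edgeR quasi-likelihood test).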
